A study of Mus musculus with 13 samples.

Results

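The brown fat thermogenic genes followed here are a named list of 31 genes of brown adipocytes, found by their symbols among the 19838 genes counted in each library. All 31 had a row. Counts came from 6 libraries of aorta and 7 of gastrocnemius muscle of mice aged 88 weeks, made with an amplicon panel that reads a short stretch of each targeted transcript. Every animal was of a mixed FVBxC57BL/6 background and carried Rosa26-rtTA, the gene of a doxycycline-controlled transactivator, as tg/+. Controls had the genotype GFP-FOXM1dNdK-/-Rosa26-rtTAtg/+ and are called Rosa26 (4 libraries in each tissue). The others had GFP-FOXM1dNdKtg/+Rosa26-rtTAtg/+, which adds GFP-FOXM1dNdK, a version of FOXM1 (a transcription factor of dividing cells) joined to GFP, and are called dNdK (2 libraries in aorta, 3 in muscle). Doxycycline treatment, sex and the promoter of the transgene are not given in the sources used here. The design asks what the added FOXM1 does in old tissue. Foxm1 had 2 and 5 counts in aorta dNdK 1 and 2, 2 to 24 in aorta Rosa26 and 0 to 3 in each muscle library. A rise of Foxm1 in dNdK was thus not seen, and whether the panel reads the transgene was not tested. Levels are CPM, a gene's counts per 1000000 gene counts of its library. Because each amplicon has a yield of its own, a level is compared between libraries and never between genes.

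Brown adipocytes burn fat to make heat. Their mitochondria hold uncoupling protein 1, which lets protons back across the inner membrane without making ATP, and cold drives them through noradrenaline, beta-adrenergic receptors and cAMP. In rodents such cells surround the thoracic aorta as perivascular fat, whereas skeletal muscle makes heat mainly by shivering and by calcium cycling.

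Depth was 3919526 to 13683952 gene counts per library. With 3 counts taken as the floor of detection, the floor was 0.219 to 0.765 CPM, which covers counting error only. The 12 general adipocyte markers (Adipoq, Plin1, Fabp4 and others) summed to 24463 to 33694 CPM in the 6 aorta libraries, to 859 to 1758 CPM in 6 muscle libraries and to 16968 CPM in muscle dNdK 3, which is therefore shown apart. Of 6 smooth muscle markers tested between the Rosa26 tissues, 2 were higher in aorta and 2 lower, and the 7 listed summed to 341 to 657 CPM in aorta and 5276 to 6274 CPM in the 6 muscle libraries, with Des, desmin, which skeletal muscle also makes, far higher in muscle (158 CPM over aorta, 5459 CPM over muscle). Myh11, the smooth muscle myosin, was found at 71.9 to 103 CPM in aorta and 22.5 to 68.9 CPM in muscle, and the shares of vessel wall and fat in the aorta samples were not measured. The heart myosin Myh6 marked 3 aorta libraries, with 911 CPM in Rosa26 1, 394 CPM in Rosa26 2 and 685 CPM in dNdK 2, and reached at most 2.13 CPM in the rest. In bulk tissue fewer cells of a type and less RNA per cell cannot be told apart.

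**Figure D1:**
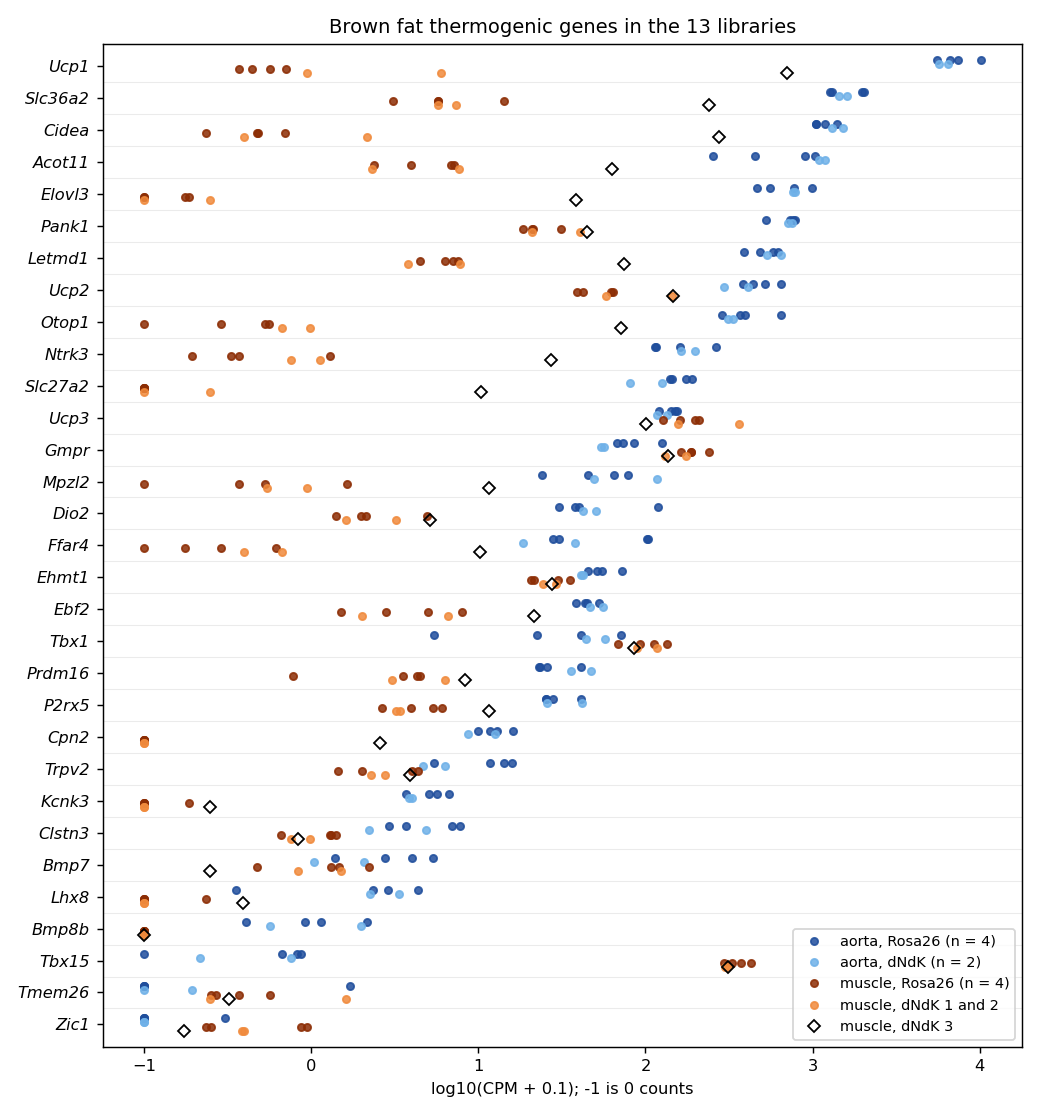
Level of each of the 31 brown fat thermogenic genes in the 13 libraries, as log10(CPM + 0.1) on the horizontal axis, with genes ordered by their aorta mean. Blue points are aorta and brown or orange points are muscle, and the open diamond is muscle dNdK 3. Ucp1 lies at the top right in all 6 aorta libraries, whereas Tbx15 is the gene with muscle far to the right of aorta.

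Promoter sequences were looked at for the uncoupling protein family, because its 3 members differed in direction between the tissues, and for Dio2, whose window holds a whole cAMP response element. Of the 31 members, 21 matched the RefSeq table of GRCm38.p6, with 27 windows of 250 bases upstream of an annotated start. Capitals mark the nuclear receptor motif AGGTCA, the short cAMP response motif TGACG or the whole cAMP response element TGACGTCA, the EBF core CCCNNGGG and the TATA box TATAAA, each searched on both strands. The short motif lies within the whole element, so a window with the element counts for both.
Ucp1, chr8:83290098-83290347, plus strand: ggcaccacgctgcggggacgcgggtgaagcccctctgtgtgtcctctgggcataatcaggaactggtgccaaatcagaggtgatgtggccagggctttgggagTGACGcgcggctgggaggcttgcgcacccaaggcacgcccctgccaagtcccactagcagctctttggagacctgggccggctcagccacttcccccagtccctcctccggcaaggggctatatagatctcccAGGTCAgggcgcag
Ucp3, chr7:100472741-100472990, plus strand: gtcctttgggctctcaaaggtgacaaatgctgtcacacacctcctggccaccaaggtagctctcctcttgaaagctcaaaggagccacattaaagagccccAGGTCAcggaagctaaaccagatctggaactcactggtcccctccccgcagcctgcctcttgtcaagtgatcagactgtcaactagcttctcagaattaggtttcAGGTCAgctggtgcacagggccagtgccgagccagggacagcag
Ucp2, chr7:100493108-100493357, plus strand: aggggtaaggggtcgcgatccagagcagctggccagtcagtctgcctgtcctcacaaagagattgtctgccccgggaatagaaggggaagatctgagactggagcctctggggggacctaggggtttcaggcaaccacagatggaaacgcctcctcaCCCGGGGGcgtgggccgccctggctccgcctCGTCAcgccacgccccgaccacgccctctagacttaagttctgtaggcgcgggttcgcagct
Dio2, chr12:90739039-90739288, minus strand: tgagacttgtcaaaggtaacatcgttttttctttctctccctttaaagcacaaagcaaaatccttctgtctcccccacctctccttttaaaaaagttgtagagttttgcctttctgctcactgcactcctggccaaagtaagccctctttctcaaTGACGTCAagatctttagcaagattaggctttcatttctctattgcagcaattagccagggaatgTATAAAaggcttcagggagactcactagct
The Ucp1 window held TGACG 147 bases and AGGTCA 14 bases before the start. The Ucp3 window held AGGTCA at 149 and 44 bases before it, and the Ucp2 window held the EBF core at 93 bases and TGACG, on the other strand, at 62 bases. The Dio2 window held TGACGTCA at 95 and TATAAA at 30 bases before the start. Ucp3 and Ucp2 are neighbours on chromosome 7, with 6905 bases between the end of Ucp3 and the start of Ucp2. Over the members AGGTCA was in 7 of 27 windows (25.93%), against 14.02% of all 32851 windows of that length. CCCNNGGG was in 7 (25.93%, against 11.82% of all), TGACG in 4 (14.81%, against 17.77%), TATAAA in 3 (11.11%, against 12.37%) and TGACGTCA in 1 (3.704%, against 1.546%). TCAAGGTCA, the ERR element, which contains AGGTCA, was in 0 of the 27 and in 0.3866% of all windows, and the EBF core with a T before and an A after it in 0 and in 0.7793%. These are matches of letters and were not tested for binding.

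In control mice, brown fat genes were far higher in aorta than in gastrocnemius, and 4 members went the other way. Of the 27 members that passed the filter on low counts, 21 were higher and 4 lower in Rosa26 aorta than in Rosa26 muscle (edgeR, adjusted p under 0.05). The tissues differ widely over the genome: 58.4% of all 11058 genes tested were called, 31% higher and 27.5% lower in aorta. Of the 27 members, 13 reached the filter level of 10 counts in a library of median size in every aorta library and not in every muscle library, and Tbx15 did so in muscle alone, so these passed through the tissue where they are high, and nothing is read from their number. The other 13 reached it in all 8 libraries, and of these 9 were higher and 3 lower, against 26.6% and 29.8% of the 8915 genes that did so. The median log2 fold change of these 13 was 2.39, against −0.065 over those 8915 genes. Their groups did not overlap after TMM scaling in 8 with aorta higher and 3 with aorta lower, against 23.6% and 28.1% of the 8915. Over all 27 tested the counts were 20 and 4, and over all 11058 genes 26.9% and 25.9%, but nothing is read from these, because of the filter. Zic1, Lhx8, Bmp8b and Tmem26 were not tested. Over 18 alternative settings 22 to 27 members were called, and each of the 27 kept the direction of its estimate.

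**Figure D2:**
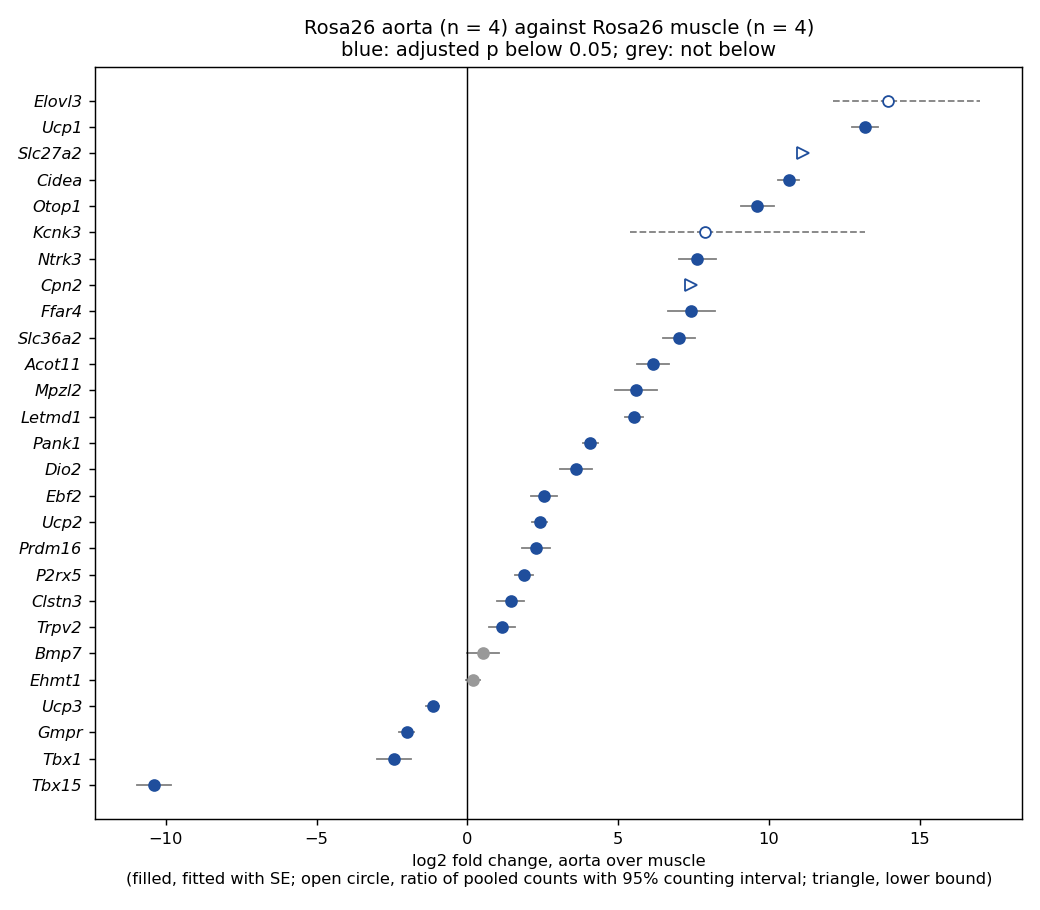
Difference of each tested member between Rosa26 aorta and Rosa26 muscle, as log2 fold change on the horizontal axis, with 4 libraries in each group. Filled points are fitted values with their standard errors, open circles are ratios of pooled counts with 95% counting intervals for genes with 1 to 3 counts in muscle, and triangles are lower bounds for genes with 0. Fitted values are TMM-scaled, whereas circles and triangles are scaled by library size alone, so they are not on the same scale. Grey marks Bmp7 and Ehmt1, which were not called, and Tbx15, Tbx1, Gmpr and Ucp3 lie left of 0.

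The uncoupling proteins split by tissue. Ucp1, the proton leak of brown fat, stood at 6632, 5525, 10148 and 7458 CPM in aorta Rosa26 1 to 4 and at 6477 and 5729.9 CPM in aorta dNdK 1 and 2. Ucp1 in muscle stood at 0.269, 0.34, 0.61 and 0.466 CPM in Rosa26 1 to 4 and at 5.89 and 0.846 CPM in dNdK 1 and 2. It was 9247-fold higher in Rosa26 aorta (log2 fold change 13.17, SE 0.44, adjusted p = 2.14e-08). Every aorta library was above every muscle library, and the muscle values of Rosa26 were 2 to 8 counts. Ucp2, a relative of Ucp1 that transports metabolites in many cell types, stood at 518, 442, 645 and 382 CPM in aorta Rosa26 1 to 4 and at 413 and 293 CPM in aorta dNdK 1 and 2. Ucp2 in muscle stood at 42.1, 61.7, 38.6 and 63.8 CPM in Rosa26 1 to 4 and at 143 and 57.7 CPM in dNdK 1 and 2. All aorta libraries lay above all muscle libraries, and Ucp2 was 5.24-fold higher in Rosa26 aorta (log2 fold change 2.39, SE 0.24, adjusted p = 1.62e-05). Ucp3, the relative found mainly in muscle, stood at 142.3, 149.6, 119.7 and 155 CPM in aorta Rosa26 1 to 4 and at 118 and 134 CPM in aorta dNdK 1 and 2. Ucp3 in muscle stood at 208, 160.2, 128 and 198 CPM in Rosa26 1 to 4 and at 364 and 156 CPM in dNdK 1 and 2. Ucp3 was lower in Rosa26 aorta (log2 fold change −1.16, SE 0.22, adjusted p = 0.00129), and its groups overlapped in CPM but not after TMM scaling, which moved the median of all genes from 0.96 with library size alone to 0.08. With library size alone the Ucp3 call was lost (−0.29, adjusted p = 0.21), as with reads of the first strand alone (adjusted p = 0.227). Muscle dNdK 1 held the highest Ucp2 and Ucp3 of the 6 muscle libraries, and also their highest Ucp1.

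Genes of fatty acid handling and of lipid droplets were all higher in aorta. Cidea, a lipid droplet protein of brown fat, stood at 1181, 1407, 1055 and 1047 CPM in aorta Rosa26 1 to 4 and at 1299 and 1518 CPM in aorta dNdK 1 and 2. Cidea in muscle stood at 0.134, 0.595, 0.381 and 0.373 CPM in Rosa26 1 to 4 and at 0.294 and 2.07 CPM in dNdK 1 and 2. The aorta values lay within 1.45-fold of each other, and the difference between Rosa26 tissues was 1616-fold (log2 fold change 10.66, SE 0.35, adjusted p = 2.14e-08). Elovl3, a fatty acid elongase that cold induces, stood at 989, 776, 559.6 and 464 CPM in aorta Rosa26 1 to 4 and at 781 and 760.2 CPM in aorta dNdK 1 and 2. Its lowest aorta levels were those of Rosa26 3 and 4, and each of 6 muscle libraries held 0 or 1 count. The pooled Rosa26 counts were 26597 in aorta and 2 in muscle, a ratio of 15931 (95% counting interval 4409.8 to 131556, edgeR adjusted p = 5.68e-08). Pooled ratios and lower bounds, here and below, are scaled by library size alone. TMM scaling, used for the fitted values, lowers ratios of aorta over muscle. The fitted log2 fold change of Elovl3 was 12.75 (SE 0.50). Slc27a2, a very long chain acyl-CoA synthetase, stood at 144, 141, 174 and 190.3 CPM in aorta Rosa26 1 to 4 and at 125 and 81.1 CPM in aorta dNdK 1 and 2. Both dNdK values lay below the Rosa26 range in CPM, but the groups overlapped after TMM scaling. Rosa26 muscle held 0 counts of Slc27a2 and dNdK 1 and 2 held 1 and 0. Scaled by library size alone, Rosa26 aorta was at least 2243-fold higher against 3 counts over the group (edgeR adjusted p = 6.97e-07). Acot11, an acyl-CoA thioesterase that restrains heat production, stood at 1034, 899, 254 and 449.8 CPM in aorta Rosa26 1 to 4 and at 1094 and 1187 CPM in aorta dNdK 1 and 2. Acot11 in muscle stood at 2.29, 7.06, 6.78 and 3.82 CPM in Rosa26 1 to 4 and at 2.21 and 7.52 CPM in dNdK 1 and 2. Rosa26 3 and 4 held the lowest aorta levels of Acot11, yet all aorta values were above all muscle values (log2 fold change 6.15, SE 0.54, adjusted p = 6.54e-06). Pank1, a pantothenate kinase at the start of coenzyme A synthesis, stood at 759, 780.4, 525 and 737 CPM in aorta Rosa26 1 to 4 and at 749.8 and 714 CPM in aorta dNdK 1 and 2. Pank1 in muscle stood at 20.8, 21.2, 31.2 and 18.5 CPM in Rosa26 1 to 4 and at 20.8 and 40.4 CPM in dNdK 1 and 2. Pank1 was 16.8-fold higher in Rosa26 aorta (log2 fold change 4.07, SE 0.26, adjusted p = 6.94e-07). Acot11 overlaps Fam151a and Elovl3 overlaps Pitx3 in the annotation, as do Ebf2 and Gm6878, Zic1 and Zic4, and Bmp8b and Oxct2b, and reads of overlapping genes counted without strand cannot be told apart.

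Genes of mitochondria, hormone activation and membrane transport followed. Dio2, the deiodinase that activates thyroid hormone inside the cell, stood at 39.8, 30.3, 119 and 38 CPM in aorta Rosa26 1 to 4 and at 42.2 and 50.7 CPM in aorta dNdK 1 and 2. Dio2 in muscle stood at 2.02, 1.87, 4.8 and 1.3 CPM in Rosa26 1 to 4 and at 3.09 and 1.5 CPM in dNdK 1 and 2. Aorta Rosa26 3 stood above the other aorta libraries, and Dio2 was 12.2-fold higher in Rosa26 aorta (log2 fold change 3.60, SE 0.54, adjusted p = 0.000255). Letmd1, an inner membrane protein of mitochondria that brown fat needs to make heat, stood at 482, 626, 389 and 577 CPM in aorta Rosa26 1 to 4 and at 649 and 536 CPM in aorta dNdK 1 and 2. Letmd1 in muscle stood at 6.99, 6.21, 4.34 and 7.46 CPM in Rosa26 1 to 4 and at 7.66 and 3.66 CPM in dNdK 1 and 2. Letmd1 was 45.7-fold higher in Rosa26 aorta (log2 fold change 5.51, SE 0.29, adjusted p = 2.4e-07). Otop1, a proton channel, stood at 287, 366, 397 and 645 CPM in aorta Rosa26 1 to 4 and at 332 and 312 CPM in aorta dNdK 1 and 2. Otop1 in muscle stood at 0, 0.425, 0.457 and 0.186 CPM in Rosa26 1 to 4 and at 0.883 and 0.564 CPM in dNdK 1 and 2. The muscle values of Otop1 were 0 to 6 counts, and aorta was higher (log2 fold change 9.62, SE 0.56, adjusted p = 4.1e-07). Slc36a2, a proton-coupled amino acid transporter used as a surface marker of brown adipocytes, stood at 1317, 1276, 1969 and 2030.3 CPM in aorta Rosa26 1 to 4 and at 1605 and 1439 CPM in aorta dNdK 1 and 2. Slc36a2 in muscle stood at 5.65, 14, 5.64 and 2.98 CPM in Rosa26 1 to 4 and at 5.59 and 7.24 CPM in dNdK 1 and 2. Aorta Rosa26 3 and 4 held the highest levels of Slc36a2, and all aorta values were above all muscle values (log2 fold change 7.02, SE 0.52, adjusted p = 2.04e-06). P2rx5, an ATP-gated ion channel and another surface marker, stood at 41.1, 25.2, 27.7 and 25.3 CPM in aorta Rosa26 1 to 4 and at 25.8 and 41.4 CPM in aorta dNdK 1 and 2. P2rx5 in muscle stood at 2.56, 3.83, 5.94 and 5.22 CPM in Rosa26 1 to 4 and at 3.09 and 3.29 CPM in dNdK 1 and 2. P2rx5 was 3.69-fold higher in Rosa26 aorta without overlap (log2 fold change 1.88, SE 0.30, adjusted p = 0.000385). Kcnk3, a potassium leak channel, stood at 4.93, 5.56, 6.58 and 3.57 CPM in aorta Rosa26 1 to 4 and at 3.73 and 3.92 CPM in aorta dNdK 1 and 2. Muscle held 0 to 1 counts of Kcnk3 in Rosa26 and 0 in dNdK 1 and 2. The pooled Rosa26 ratio for Kcnk3 was 235 (95% counting interval 41.7 to 9321, edgeR adjusted p = 2.15e-05).

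Transcription regulators did not move as 1 group. Prdm16, a coregulator that sets brown fat identity, stood at 22.8, 25.6, 23.4 and 40.8 CPM in aorta Rosa26 1 to 4 and at 35.6 and 47.3 CPM in aorta dNdK 1 and 2. Prdm16 in muscle stood at 0.672, 4.17, 4.34 and 3.45 CPM in Rosa26 1 to 4 and at 2.94 and 6.2 CPM in dNdK 1 and 2. Its dNdK values in aorta overlapped those of Rosa26. Ebf2, a factor of brown fat precursors, stood at 52.9, 43.2, 44.5 and 38.3 CPM in aorta Rosa26 1 to 4 and at 46.2 and 56 CPM in aorta dNdK 1 and 2. Ebf2 in muscle stood at 2.69, 7.82, 4.88 and 1.4 CPM in Rosa26 1 to 4 and at 1.91 and 6.48 CPM in dNdK 1 and 2. Both were higher in Rosa26 aorta without overlap, Prdm16 4.87-fold (log2 fold change 2.28, SE 0.46, adjusted p = 0.00169) and Ebf2 5.81-fold (log2 fold change 2.54, SE 0.42, adjusted p = 0.000479). Ehmt1, a histone methyltransferase that works with PRDM16, stood at 51.2, 54.5, 72.2 and 45.2 CPM in aorta Rosa26 1 to 4 and at 42 and 40.7 CPM in aorta dNdK 1 and 2. Ehmt1 in muscle stood at 35.1, 21.4, 20.7 and 29.9 CPM in Rosa26 1 to 4 and at 29 and 24.3 CPM in dNdK 1 and 2. Its CPM was higher in every aorta library than in any muscle library, but the difference was not called after TMM scaling (log2 fold change 0.18, SE 0.23, adjusted p = 0.53). With library size alone it was called (1.07, adjusted p = 0.00244). Tbx15, a T-box factor of brown fat precursors and of fast muscle fibres, was close to absent from aorta, with 0 to 7 counts in each of the 6 libraries. Tbx15 in muscle stood at 428, 332, 294 and 372 CPM in Rosa26 1 to 4 and at 308 and 301 CPM in dNdK 1 and 2. Tbx15 was 1343-fold lower in Rosa26 aorta (log2 fold change −10.39, SE 0.56, adjusted p = 2.69e-07). Tbx1, a T-box factor named as a beige fat marker, stood at 71.3, 41.1, 22.4 and 5.36 CPM in aorta Rosa26 1 to 4 and at 43.9 and 57.5 CPM in aorta dNdK 1 and 2. Tbx1 in muscle stood at 92.1, 135, 113 and 68.1 CPM in Rosa26 1 to 4 and at 89.1 and 117 CPM in dNdK 1 and 2. Tbx1 was lower in Rosa26 aorta (log2 fold change −2.43, SE 0.56, adjusted p = 0.00364), its aorta values spread over 13.3-fold, and the groups overlapped in CPM but not after TMM scaling. Library size alone gave −1.52 for Tbx1 (adjusted p = 0.0343). Zic1 and Lhx8 are transcription factors used as markers of interscapular brown fat. Zic1 had 0 to 2 counts in each aorta library and 1 to 9 in each muscle library, with a pooled Rosa26 ratio of muscle over aorta of 8.76 (95% counting interval 2.14 to 77.1). Lhx8 had 1 to 53 counts in each aorta library and 0 to 4 in each muscle library, with a ratio of Rosa26 aorta over muscle of 123 (95% counting interval 21.7 to 4920.4). Zic1 and Lhx8 thus leaned to opposite tissues, both at small counts.

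Receptors, secreted factors and the remaining members were mostly higher in aorta. Ffar4, a receptor for long chain fatty acids, stood at 28, 30.3, 103 and 102 CPM in aorta Rosa26 1 to 4 and at 18.3 and 37.6 CPM in aorta dNdK 1 and 2. Ffar4 in muscle stood at 0, 0.51, 0.0762 and 0.186 CPM in Rosa26 1 to 4 and at 0.294 and 0.564 CPM in dNdK 1 and 2. Aorta Rosa26 3 and 4 stood above the others, and Ffar4 was higher in Rosa26 aorta (log2 fold change 7.42, SE 0.78, adjusted p = 2.19e-05). Ntrk3, the receptor of neurotrophin 3, stood at 115, 115, 161 and 265 CPM in aorta Rosa26 1 to 4 and at 162 and 198 CPM in aorta dNdK 1 and 2. Ntrk3 in muscle stood at 0.269, 1.19, 0.229 and 0.0932 CPM in Rosa26 1 to 4 and at 1.03 and 0.658 CPM in dNdK 1 and 2. All aorta values of Ntrk3 lay above all muscle values (log2 fold change 7.63, SE 0.63, adjusted p = 4.05e-06). Trpv2, a cation channel of brown fat and of macrophages, stood at 11.7, 15.8, 14.2 and 5.36 CPM in aorta Rosa26 1 to 4 and at 4.55 and 6.17 CPM in aorta dNdK 1 and 2. Trpv2 in muscle stood at 1.34, 4.25, 1.91 and 3.91 CPM in Rosa26 1 to 4 and at 2.65 and 2.16 CPM in dNdK 1 and 2. Trpv2 was 2.22-fold higher in Rosa26 aorta (log2 fold change 1.15, SE 0.42, adjusted p = 0.0358). That call was lost in 10 of 18 alternatives, among them with the numbers of the deposited names as a block (adjusted p = 0.0803), without aorta Rosa26 1, 2 or 3 (adjusted p = 0.0641, 0.0886 and 0.0764) and without muscle Rosa26 1 or 3 (0.087 and 0.1). Cpn2, a subunit of carboxypeptidase N, stood at 9.86, 11.6, 12.9 and 16.1 CPM in aorta Rosa26 1 to 4 and at 8.51 and 12.5 CPM in aorta dNdK 1 and 2. Each of 6 muscle libraries held 0 counts of Cpn2. Scaled by library size alone, Rosa26 aorta was at least 172-fold higher against 3 counts over the group (edgeR adjusted p = 2.14e-05). Mpzl2, a cell adhesion protein, stood at 78, 64.6, 23.9 and 45.4 CPM in aorta Rosa26 1 to 4 and at 118 and 49.1 CPM in aorta dNdK 1 and 2. Mpzl2 in muscle stood at 0.269, 0.425, 1.52 and 0 CPM in Rosa26 1 to 4 and at 0.442 and 0.846 CPM in dNdK 1 and 2. Mpzl2 was higher in aorta without overlap (log2 fold change 5.59, SE 0.71, adjusted p = 7.99e-05).

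Clstn3, the calsyntenin 3 gene, with an isoform that acts in adipocytes, stood at 6.88, 2.82, 7.69 and 3.57 CPM in aorta Rosa26 1 to 4 and at 2.1 and 4.77 CPM in aorta dNdK 1 and 2. Clstn3 in muscle stood at 1.21, 1.19, 1.3 and 0.559 CPM in Rosa26 1 to 4 and at 0.883 and 0.658 CPM in dNdK 1 and 2. Clstn3 was 2.69-fold higher in Rosa26 aorta (log2 fold change 1.43, SE 0.45, adjusted p = 0.0185), and the isoform read by the amplicon is not given in the sources used here. The Clstn3 call was lost with reads of the first strand alone (adjusted p = 0.0575) and without aorta Rosa26 1, aorta Rosa26 3 or muscle Rosa26 4 (adjusted p = 0.0548, 0.0567 and 0.0535). Gmpr, a guanosine monophosphate reductase, stood at 67.8, 73.2, 125 and 85.7 CPM in aorta Rosa26 1 to 4 and at 56.3 and 54.4 CPM in aorta dNdK 1 and 2. Gmpr in muscle stood at 242, 162, 186 and 187 CPM in Rosa26 1 to 4 and at 131 and 176 CPM in dNdK 1 and 2. Gmpr was 4.04-fold lower in Rosa26 aorta, with every aorta library below every muscle library (log2 fold change −2.01, SE 0.25, adjusted p = 6.65e-05). Bmp7 and Bmp8b are secreted ligands that promote brown fat. Bmp7 stood at 0.933 to 5.26 CPM in aorta and 0.373 to 2.13 CPM in the 6 muscle libraries and was not called (log2 fold change 0.50, SE 0.53, adjusted p = 0.436). Bmp8b had 3 to 20 counts in each aorta library and 0 in all 7 muscle libraries. Rosa26 aorta was at least 12.8-fold higher in Bmp8b by library size alone, against 3 counts over the group. Its sequence is close to that of Bmp8a, so its counts are uncertain. Tmem26, a beige fat surface marker, had 0 to 20 counts in aorta and 1 to 16 in muscle.

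Among the 6 aorta libraries some members were steady and others varied widely. Over the 22 members with a mean of at least 10 CPM in aorta, the highest library was a median of 2.1 times the lowest, against 1.94 times over all 7956 genes at that level. Ucp3, Cidea, Ebf2 and Pank1 were the steadiest, within 1.32, 1.45, 1.46 and 1.49 times. Tbx1, Ffar4, Mpzl2 and Acot11 were the widest, over 13.3, 5.65, 4.93 and 4.68 times. Rosa26 3 and 4 were both below the other 4 aorta libraries in 5 of the 22, 22.7% (Cidea, Elovl3, Acot11, Tbx1 and Mpzl2) and both above them in 7, 31.8% (Ucp1, Otop1, Slc27a2, Slc36a2, Cpn2, Gmpr and Ffar4). Over all 7956 genes these shares were 20.8% below and 19.5% above, so the lower set is at the share of all genes. The pair of libraries was picked after seeing the data, so nothing is read from the higher set either. The 2 libraries also held 7.21% and 7.45% unmapped reads, against 4.62% to 5.62% in the other 4, and their part in these levels was not tested. The general adipocyte markers summed there to 30037 and 31601 CPM against 24463 to 33694 CPM.

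**Figure D3:**
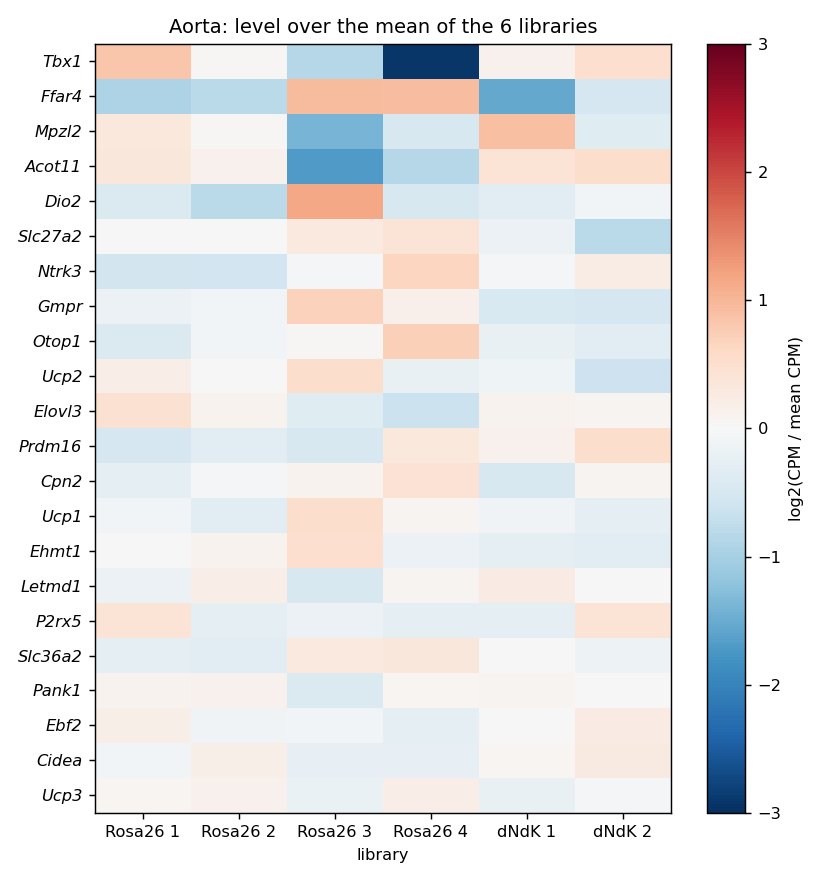
Level of the 22 members with a mean of at least 10 CPM in aorta, each library over the mean of the 6 as log2, red for higher and blue for lower. Genes run from the widest spread at the top (Tbx1, Ffar4) to the narrowest at the bottom (Cidea, Ucp3), and Rosa26 3 and 4 are low in Acot11, Elovl3 and Tbx1.

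In aorta, no brown fat gene was called between the genotypes. Of the 28 members tested, 0 were called by edgeR or by DESeq2, and 1 had an unadjusted p under 0.05. Over all 11920 genes 0.00839% were called and 5.98% had an unadjusted p under 0.05. The estimates of the 28 ran from −1.13 (Ffar4, SE 0.67) to 0.93 (Acot11, SE 0.48), with 13 above and 15 below 0 and a median of −0.027, against −0.046 over all genes. Ucp1 had −0.16 (SE 0.29, adjusted p = 0.905), Ucp2 −0.35 (SE 0.27, adjusted p = 0.781) and Ucp3 −0.052 (SE 0.24, adjusted p = 0.961). The dNdK values of Ucp1 lay within the Rosa26 range, and 1 of those of Ucp2 and 1 of those of Ucp3 lay below it. After TMM scaling the groups did not overlap for Acot11 and Cidea (Cidea overlapped in CPM), where dNdK was higher, and for Gmpr and Ehmt1, where it was lower. Over all genes tested, 9.14% were higher and 8.2% lower without overlap. Cidea had 0.40 (SE 0.22), Gmpr −0.54 (SE 0.30) and Ehmt1 −0.29 (SE 0.24). The member with an unadjusted p under 0.05 was Trpv2 (log2 fold change −0.98, SE 0.42, adjusted p = 0.757), at 4.55 and 6.17 CPM in dNdK against 5.36 CPM in Rosa26 4 and 11.7 to 15.8 CPM in Rosa26 1 to 3. The 5 macrophage markers, a cell type that expresses Trpv2, all had lower estimates with 0 called, and their summed level was 292 to 702 CPM in Rosa26 and 247 to 299 CPM in dNdK. Lower estimates throughout were also seen in the endothelial, B cell, T cell, nerve and beige fat markers tested, and higher ones throughout in the 6 heart muscle markers. The part of any of these cells in the Trpv2 values was not tested. The 12 general adipocyte markers had 0 called and a median of 0.12, with sums of 24463 to 31601 CPM in Rosa26 and 26688 to 33694 CPM in dNdK.

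**Figure D4:**
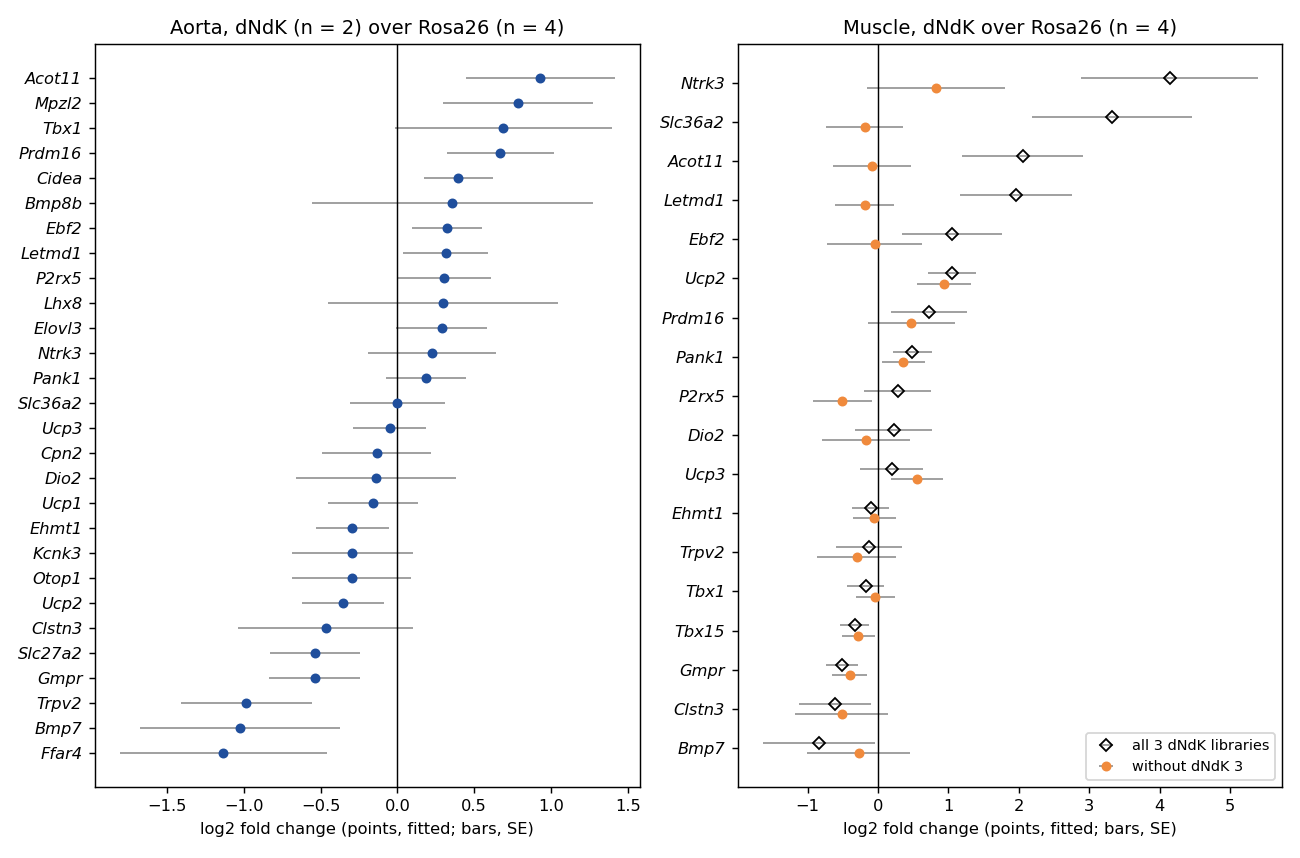
Difference between dNdK and Rosa26 for each tested member, as log2 fold change with its standard error, in aorta on the left and in muscle on the right. In muscle the open diamonds use all 3 dNdK libraries and the orange points leave out dNdK 3. Ntrk3, Slc36a2, Acot11 and Letmd1 lie far right of 0 with dNdK 3 and within 1 unit of 0 without it.

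In muscle, no brown fat gene was called between the genotypes, and the largest estimates turned on 1 library. Of 18 members tested, 0 were called by edgeR or DESeq2, as were 0% of all 10491 genes by edgeR and 7 genes by DESeq2. An unadjusted p under 0.05 was reached by 6 members: Ntrk3, Slc36a2, Acot11, Letmd1 and Ucp2 with higher and Gmpr with lower estimates (adjusted p = 0.656 for each), against 7.55% of all genes. Groups without overlap were seen in 0 of the 18, against 2.95% of all genes with dNdK higher and 2.98% with dNdK lower. Ntrk3 had 4.14 (SE 1.25) with and 0.82 (SE 0.98) without dNdK 3, and Slc36a2 had 3.32 (SE 1.13) with and −0.19 (SE 0.55) without dNdK 3. Acot11 had 2.05 (SE 0.86) with and −0.087 (SE 0.56) without dNdK 3, and Letmd1 had 1.96 (SE 0.80) with and −0.19 (SE 0.42) without dNdK 3. Slc36a2, Acot11 and Letmd1 thus turned below 0 when dNdK 3 was left out. Gmpr had −0.51 (SE 0.23) with and −0.40 (SE 0.25) without dNdK 3. Ucp2 had 1.05 (SE 0.34) with and 0.94 (SE 0.38) without dNdK 3, and it was the only one of the 18 with an unadjusted p under 0.05 with and without that library (adjusted p = 0.973 without dNdK 3, where 4.14% of all genes had such a p). The median over the 18 was 0.25 with dNdK 3 and −0.13 without it, against 0.026 and −0.002 over all genes. Of the other dNdK libraries, dNdK 1 stood above the Rosa26 range of Ucp2, at 143 CPM against 57.7 CPM in dNdK 2, which lies within the Rosa26 range. The macrophage markers, a cell type with high Ucp2, summed to 169 CPM in dNdK 1, to 149 CPM in dNdK 3 and to 55 to 132 CPM in dNdK 2 and the 4 Rosa26 libraries. Endothelial and B cell markers also summed highest in dNdK 1 (369 and 15.6 CPM), whereas T cell markers summed highest in dNdK 3. The part of these cells in the Ucp2 values was not tested. The other 13 members did not pass the count filter in muscle.

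Muscle dNdK 3 held brown fat transcripts that the other 6 muscle libraries nearly lacked. It stood above all 6 in 20 of the 31 members, against 30.7% of the 16011 genes with a count in muscle. It stood below all 6 in 3 (Ucp3, Zic1 and Bmp7). The other 8 were neither, among them Bmp8b, which had 0 counts in every muscle library and so is not among the 16011. Ucp1 stood at 701 CPM, 10% of the aorta mean, against 0.269 to 5.89 CPM in the other 6. Cidea stood at 275 CPM, 22% of the aorta mean, and Otop1 at 71.1 CPM, 18.2% of the aorta mean. In these 3 no other muscle library came above 5.89 CPM. Elovl3 stood at 38.1 CPM, 5.28% of the aorta mean, Slc27a2 at 10.2 CPM, 7.17% of the aorta mean, and Acot11 at 63.4 CPM, 7.73% of the aorta mean. Slc36a2 stood at 240.0 CPM, 14.9% of the aorta mean, Letmd1 at 73.9 CPM, 13.6% of the aorta mean, and Ntrk3 at 27.1 CPM, 16% of the aorta mean. Cpn2, at 0 counts in the other 6, had 34 counts there (20.9% of the aorta mean). For 15 members the aorta mean was at least 10 CPM and the mean of the 6 other muscle libraries under 10% of it, and over these the level of dNdK 3 ran from 5.28% (Elovl3) to 45.9% (Ebf2) of the aorta mean, with a median of 14.9%. By the same rule 9 general adipocyte markers ran from 38.9% (Lipe) to 76.7% (Adipoq), with a median of 51.6%. Of 8 white adipocyte markers 4 stood above the other 6 muscle libraries (Lep, Retn, Slc7a10 and Hoxc8), Agt and Hoxc9 lay within their range, and Tcf21 and Nnat had 0 counts. Lep, leptin, a hormone made mainly by white fat, stood at 209 CPM, 283% of its aorta mean and above its aorta range of 35.2 to 152 CPM. Retn, resistin, stood at 215 CPM, 218% of its aorta mean but within its aorta range of 31 to 242 CPM. The fat markers of dNdK 3 and of aorta thus differed in proportion: the ratio of Ucp1 to Adipoq was 5.45 in dNdK 3 and 33.2 to 50.3 in aorta. Per Adipoq, which of the 9 markers was nearest to its aorta level, all 15 members were below the aorta range. Per geometric mean of the 12 general adipocyte markers 14 of the 15 were, Ucp1 at 0.962 against 5 to 7.94, and Ebf2 (0.0295) lay within it (0.0267 to 0.055). Ffar4 was below by little (0.0139 against 0.0141 to 0.0809). Only 9 of the 12 met the rule above, and the part of the rest in these ratios was not tested. Muscle dNdK 3 is 1 library, so the proportion has no replicate. Tbx15 (313 CPM), Tbx1 (85.7 CPM) and Gmpr (136 CPM), the members that were higher in muscle, lay within the range of the other 6, and Ucp3 (100.1 CPM) lay below it. Ucp2 stood at 146 CPM, beside 143 CPM in dNdK 1. This library and aorta dNdK 1 carry the same number in their deposited names, and that aorta library held 6477 CPM of Ucp1 and 162 CPM of Adipoq.

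**Figure D5:**
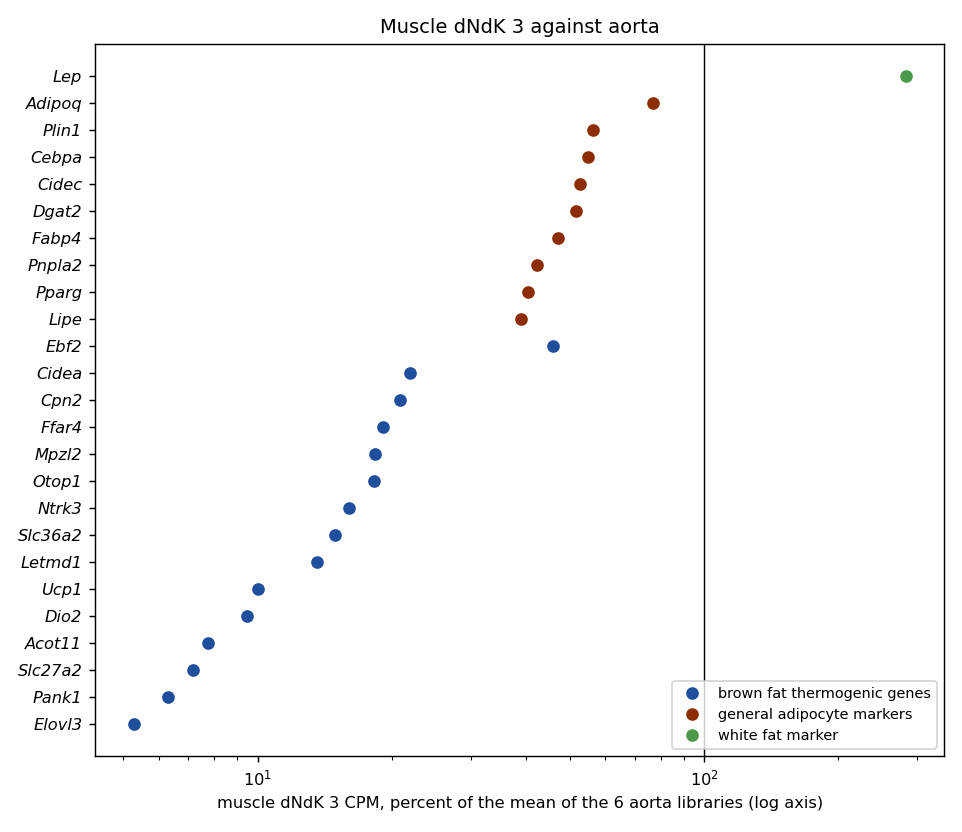
Level of muscle dNdK 3 as percent of the mean of the 6 aorta libraries, on a log axis, for fat genes that the other muscle libraries hold at under 10% of aorta. Blue points are the 15 brown fat thermogenic genes, brown points are 9 general adipocyte markers and the green point is Lep. Apart from Ebf2, the blue points lie left of all brown points.

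Set against each other in 1 model, the genotype effects in muscle and in aorta differed in 0 of 30 members by edgeR, against 0% of all 12318 genes. An unadjusted p under 0.05 was reached by 10 members, all with the higher effect in muscle, against 8.48% of all genes, and by 2 (Ucp1 and Ucp2) without muscle dNdK 3, against 7.19%. Of the 10, 7 (Ucp1, Cidea, Elovl3, Otop1, Slc27a2, Cpn2 and Ffar4) had not passed the filter in muscle alone and entered through aorta, where they are high, so nothing is read from their number. Slc27a2 and Cpn2 had 0 counts in Rosa26 muscle, and their fitted effects are no sizes. Ucp1 had an interaction of 8.93 on the log2 scale (SE 2.41, adjusted p = 0.583) and of 2.96 (SE 0.81, adjusted p = 0.684) without dNdK 3. Muscle dNdK 1 then held 40 counts of Ucp1, dNdK 2 held 9 and the Rosa26 libraries 2 to 8. DESeq2 called 1 member, Ucp1 (log2 8.88, adjusted p = 0.0341), with dNdK 3 and its 9591 counts of Ucp1 in the fit. The share of all genes that DESeq2 called in that fit is not given here, and Ucp1 entered through aorta. Nothing is therefore read from this call.

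Other genes of the thermogenic pathway were counted from 3 lists. Among all genes tested between the tissues 31% were higher and 27.5% lower, with a median of 0.08. The lists were not split by filter level as the members were. Some of their genes, such as Ryr1, passed through the tissue where they are high, so nothing is read from the numbers called or the medians. Of 25 regulators and signalling genes tested between the Rosa26 tissues, 11 were higher and 2 lower in aorta (median log2 fold change 0.58). Those with the smallest p, with log2 fold changes in parentheses, were Adcy3 (adenylate cyclase 3, 5.11, SE 0.29), Nrg4 (a growth factor released by brown fat, 5.95, SE 0.53), Pparg (the adipocyte nuclear receptor, 4.74, SE 0.42) and Prkar2b (a regulatory subunit of protein kinase A, 6.77, SE 0.62). Among 14 genes of fuel burning and mitochondria, 11 were higher and 0 lower (median 2.31). They were led by Slc25a20 (the acylcarnitine carrier, 2.88, SE 0.20), Acaa2 (a mitochondrial thiolase, 3.63, SE 0.25), Etfdh (an electron carrier of beta-oxidation, 2.41, SE 0.19) and Acadl (an acyl-CoA dehydrogenase, 2.59, SE 0.25). The 9 genes of other heat cycles gave 3 higher and 4 lower (median −1.45). Among them Ryr1, the calcium release channel of muscle (means of 0.0337 CPM over 6 aorta and 1928 CPM over 6 muscle libraries), Atp2a1, the calcium pump of fast fibres (−15.85, SE 0.68), and Gamt, an enzyme of creatine synthesis (−3.0, SE 0.24), were lower in aorta, and Pm20d1, which makes uncoupling N-acyl amino acids (5.14, SE 0.31), was higher. Between genotypes 0 genes of the 3 lists were called in either tissue. In aorta their medians were 0.20, 0.14 and 0.42, against a member median of −0.027. In muscle they were 0.19, 0.52 and 0.017 with dNdK 3 and 0.12, 0.27 and −0.14 without it.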

How the data were processed

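The authors deposited, for each of 13 libraries, a table of read counts per gene on either strand and on each strand alone. Per the submitters' processing notes, STAR 2.5.2b, edgeR 3.28.1, limma 3.42.2 and the builds mm10 and GRCm38.p6 were named. Raw counts of both strands were used here, since 46.3% to 49.3% of gene reads fell on the first strand. Counts were analysed in R 4.3.3 with edgeR 4.0.16: filterByExpr set the filter (min.count 10, min.total.count 15) and TMM the scaling before the quasi-likelihood test, with Benjamini-Hochberg adjustment over all genes tested and a threshold of 0.05. A gene's standard error is its log2 fold change over the root of its F. DESeq2 1.42.0 was an alternative, with other scalings, filters, single strands, blocks and libraries left out, and the pipeline was tested on simulated data. Nothing says whether libraries of a group came from separate animals beyond their numbers, so p-values measure only the spread between these libraries, which may be technical. A number in the deposited names, taken to mark the animal although the labels do not say so, occurs in both tissues 4 times. The deviations of those libraries correlated at r = 0.366, 0.363, 0.27 and 0.146. Other pairs reached 0.444, so these values do not show a shared animal. The 0.146 involves aorta dNdK, a group of 2, where the deviations mirror each other. The number in the deposited names was used as a block in the tissue comparison. The title numbers do not pair libraries. Members, gene lists and the rule for named genes (values in every library for members called or with a mean of at least 10 CPM in a group, others by range) were chosen with earlier results of these data known. Reads of an amplicon are copies made by PCR, so intervals and floors cover counting error only.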

Additional observations from a re-analysis of the deposited data

Results flagged for a closer look

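In groups of 4 libraries, 48 members and groups were searched for a library far from the other 3, and 7 had one. The rule flags about 1 in 20 groups of normally distributed values, which CPM near 0 are not. The share over all genes is not given here, so nothing is read from the number flagged. In aorta Rosa26, library 3 stood above the others in Dio2 (119 CPM, the others 30.3 to 39.8 CPM) and below them in Pank1 (525 CPM, the others 737 to 780.4 CPM). Aorta Rosa26 4 stood above the others in Prdm16 (40.8 CPM, the others 22.8 to 25.6 CPM), and Rosa26 1 in P2rx5 (41.1 CPM, the others 25.2 to 27.7 CPM). Tmem26 had 20 counts in aorta Rosa26 2 (1.61 CPM) and 0 in the other 3. In muscle Rosa26, Clstn3 was lowest in library 4 (0.559 CPM, 6 counts) and Ntrk3 highest in library 2 (1.19 CPM, 14 counts). The last 3 are small counts.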

How the results depend on the processing

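The count of members called was 0 in each of 18 alternatives in aorta and 19 in muscle. For the difference of the genotype effect between tissues it was 0 in 21 of 22, where DESeq2 gave 1 (Ucp1), from which nothing is read. Between the Rosa26 tissues it was 22 to 27 against 25, and 23 to 26 when 1 library was left out. Genome-wide calls between the tissues were 3424 higher and 3038 lower with TMM, 6254 and 1298 with library size alone and 4142 and 2404 with upper quartile scaling. In aorta, genome-wide calls were 1 with edgeR, 13 with DESeq2, 163 with the replicate block of the title numbers, 30 without the 3 libraries with heart myosin and 179 without Rosa26 3 and 4, with 0 members among them in each. In the tissue comparison 468 values of single members kept their side of the threshold, 16 lost it and 2 gained it, and the cause was not tested. The replicate block left 24 members called between the tissues, as did the block on the numbers of the deposited names (Trpv2 lost in both). Small aorta estimates turned sign: Ucp1 was 0.31 with the second strand alone, 0.19 with the replicate block and 0.19 without Rosa26 3 and 4, Ucp3 was 0.71 with the first strand alone, and Ffar4 was 0.039 with the replicate block and 0.12 without Rosa26 3 and 4. With 1 library left out, Ucp1 in aorta ran from −0.28 to 0.0011 and Ucp3 from −0.14 to 0.064. In muscle, Slc36a2 ran from −0.19 to 3.88, Letmd1 from −0.19 to 2.47 and Acot11 from −0.087 to 2.56, each lowest without dNdK 3. With the adipocyte list as a covariate Slc36a2 was −0.056 and Acot11 −0.40, while Letmd1 stayed above 0 (0.12). Without dNdK 3 and with that covariate Slc36a2, Letmd1 and Acot11 were −0.15, −0.19 and −0.41, and without dNdK 3 by DESeq2 −0.18, −0.18 and −0.083. The settings without Rosa26 3 and 4, and the 2 that join a setting to leaving out dNdK 3, were chosen after seeing the data. The 13 members under the count filter in muscle have no genotype test there. Of these, 12 enter the comparison of effects between tissues, and all of the 12 but Tmem26 had passed the filter in aorta alone.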

Other observations

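Muscle dNdK 1 held 40 counts of Ucp1 (5.89 CPM) while its general adipocyte markers, 991 CPM in sum, lay within the range of Rosa26 muscle (859 to 1570.3 CPM). Its Adipoq level, 5 counts or 0.736 CPM, was the lowest of the 13 libraries, so its ratio of Ucp1 to Adipoq rests on few counts: it was 8, against 0.0494 to 0.364 in Rosa26 muscle. Cidea, Elovl3 and Slc27a2 had 2, 1 and 1 counts there. Letmd1 (7.66 CPM, against 7.46 CPM in Rosa26 4) and Otop1 (0.883 CPM) were the highest of the 6 muscle libraries without dNdK 3. Otop1 had 6 counts there, as in the deeper libraries Rosa26 3 and dNdK 2. Acot11 (2.21 CPM) was the lowest of the 6, and Ebf2 (1.91 CPM), Pank1 (20.8 CPM) and Slc36a2 (5.59 CPM) lay within the range of Rosa26 muscle. Muscle dNdK 1 also held the highest Ucp2 (143 CPM) and Ucp3 (364 CPM) of the 6.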
